A study of Mus musculus with 2 samples.

Results

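The cells described here are kidney endothelial cells, the cells that line the blood vessels of the kidney, in the single-cell RNA sequencing of kidneys from MRL-lpr mice. They were selected on expression: at least 200 detected genes, at most 20% mitochondrial UMIs, a UMI of at least 3 of the 7 markers Flt1, Emcn, Pecam1, Kdr, Egfl7, Plvap and Ehd3, and no UMI of the leukocyte genes Ptprc, Cd3d and Lyz2. A UMI is a molecular tag that marks 1 captured RNA molecule. The selection held 322 of the 21661 cells that passed the filters on genes and mitochondrial UMIs. In the young library it held 305 of 11429 cells (2.67%, exact Clopper-Pearson 95% interval 2.38 to 2.98). In the old library it held 17 of 10232 cells (0.166%, interval 0.0968 to 0.266). The description below therefore rests mainly on the young library.

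Kidney blood passes through capillary beds that differ in structure: the fenestrated tuft of the glomerulus, the fenestrated peritubular capillaries that take up what the tubules reabsorb, and the vasa recta of the medulla. Endothelial cells of these beds share a core of adhesion, receptor and transcription factor genes and differ in the genes for matrix proteins, insulin-like growth factor binding proteins and arterial or venous regulators. They also present antigen, respond to interferon and display the adhesion molecules and cytokines that leukocytes meet when they enter the tissue, which is where they bear on lupus nephritis.

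The study compared kidneys of young and old MRL-lpr mice to follow innate lymphoid cells in lupus nephritis. Both groups carried the lpr mutation of Fas on the MRL background, no treatment was named, and the sample labels gave ages only as young and old. The study's methods describe young mice as controls or mildly diseased and old mice as severely diseased. Age and disease therefore cannot be told apart between the 2 libraries. Kidneys of each age were pooled into 1 library, and the cells were taken through a density gradient and a kit that enriches innate lymphoid cells, so endothelial cells are those left over by a preparation for leukocytes. The share of endothelial cells therefore describes these preparations, and fewer endothelial cells in the old kidney cannot be told apart from a different yield.

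With 1 library per age, no test between the ages was possible, and all intervals below are exact 95% intervals that cover counting error only. The selected cells held 2022555 UMIs in the young library (541 to 39856 per cell, median 5538) and 115673 in the old one (541 to 12845, median 6772). The libraries shared 41 barcodes, none of which was a selected cell. Although the study's methods name female mice, 170 of the 305 young cells and 8 of the 17 old cells held Y-linked UMIs and no Xist UMI, and 32 and 4 cells held Xist UMIs alone. In 45 young cells and no old cell, at least 3 of 7 proximal tubule genes were detected. These 45 cells had a median of 11220 UMIs, against 5345 in the other 260. Scrublet, a doublet caller, marked 26 of the young and 0 of the old selected cells.

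The cells are described first by how many of the 7 markers they held, which is the value that chose them. Among young cells without the 3 leukocyte genes, 6654 held none of the 7 markers, 459 held 1 and 16 held 2, whereas 213 of the 305 selected cells held all 7 and 65 held 6. The 4 young cells just inside the limit, with 3 markers, had a median of 4 other endothelial genes (1 to 7) at a median depth of 4370 UMIs. The 16 young cells just outside it, with 2 markers, had a median of 0 (0 to 8) at a median depth of 20800 UMIs. In the old library 13 cells lay just outside, with 0 to 1 other endothelial genes. A further 26 young and 11 old cells met the marker limit but held a leukocyte gene and were kept out. Their depth was higher (medians 10552 and 17829 UMIs).

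**Figure D1:**
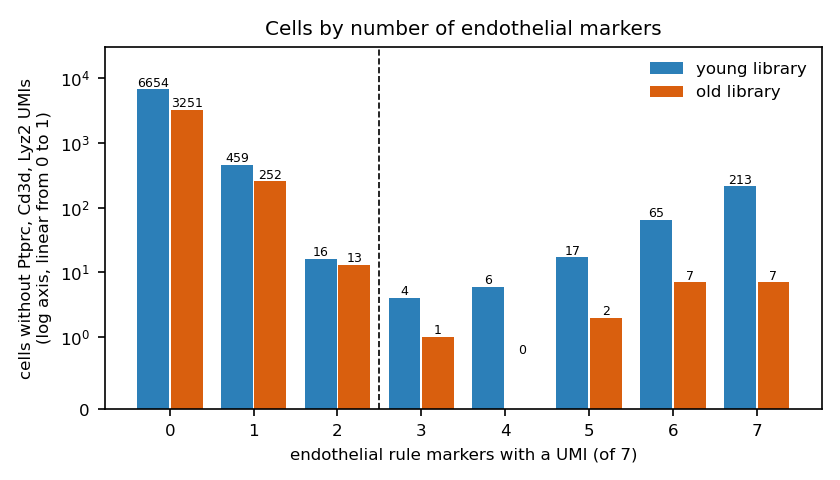
Number of cells (log axis, linear from 0 to 1) by how many of the 7 endothelial markers had a UMI, for the young and the old library, among cells without Ptprc, Cd3d and Lyz2 UMIs. The dashed line marks the limit of 3 markers, which 305 young and 17 old cells met. Young cells number 16 with 2 markers, 4 with 3 and 6 with 4, and old cells 13, 1 and 0.

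Gene levels are printed as CPM (counts per 1e6): all UMIs that a gene had in a set of cells, divided by the total of that set and scaled to 1e6. They are set beside the other young cells, among them 5915 proximal tubule cells and 433 T cells chosen by their own genes. Since the cells were chosen by expression, the comparison with other cells describes them and tests nothing. Of 6335 genes with at least 50 UMIs in the selected young cells, 914 (14.4%) had an interval wholly above a 4-fold higher level than in the other young cells, and the median log2 ratio of all 6335 was 0.44.

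The endothelial label held against markers that the selection did not use. All 18 measured genes of a list of 19 endothelial identity genes passed the 4-fold limit, with a median log2 ratio of 9.44. Cdh5, the cadherin of endothelial junctions, was at 637 CPM (602 to 673) in the selected cells and 0.849 in the others, and 276 of the 305 cells held it (lowest 0, median 6.90, highest 32.1 UMIs per 10000 in a cell). The angiopoietin receptor gene Tek was at 627 CPM against 0.773, its relative Tie1 at 367 against 0.487, and the vascular phosphatase gene Ptprb at 1047 against 1.14. Endoglin (Eng), a co-receptor for TGF-beta, was at 1734 CPM against 3.49. Vwf, which encodes the clotting factor stored in the endothelium of larger vessels, had 0 UMIs in the 305 young cells, which allows a level of up to 1.48 CPM.

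The markers of other cells were counted in the same cells. Cd3e, C1qa, Pdgfrb, Acta2, Nphs1 and Wt1, which mark T cells, macrophages, mural cells and podocytes, had 0 UMIs in the young selected cells. Other members of the same lists did have UMIs. Of the 8 listed podocyte genes 3 had UMIs, at 124 CPM together, and 2 of them passed the 4-fold limit. Of the 13 listed mural genes 4 had UMIs, at 10.9 CPM together. Of the 18 listed leukocyte genes 12 had a UMI, and their sum per cell ran from 0 to 23.3 UMIs per 10000 with a median of 0. Proximal tubule RNA was present: all 15 listed tubule genes had UMIs, and their sum ran from 12.1 to 1780 per 10000, with a median of 39.8 in the selected cells, 38.9 in T cells and 612 in proximal tubule cells. Kap, an abundant androgen-regulated transcript of the proximal tubule, was detected in all 305 young cells at 12330 CPM, against 2258 in T cells and 48770 in proximal tubule cells. The summed level came mostly from few cells: 10 cells held 19455 of the 24947 Kap UMIs, and the median cell held 22.7 UMIs per 10000. Hemoglobin UMIs came mostly from 1 young cell, which held 3021 of the 3106 Hbb-bs UMIs, and all 85 UMIs of the collecting duct water channel gene Aqp2 came from 1 cell.

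The endothelial transcription factors were detected broadly. Of the 20 listed, 17 were measured and 14 passed the 4-fold limit (median log2 ratio 4.39). The 3 SoxF factors, which set vascular and arterial fates, differed in breadth. Sox18 was at 477 CPM (448 to 508) in 259 of 305 cells against 0.341 elsewhere, and Sox7 at 56.4 CPM in 82 cells. Sox17, the arterial member, was at 26.2 CPM in 20 cells, and with no UMI in any of the other young cells it was at least 1255-fold higher (floor of 3 counts over all other cells). The flow-induced factor gene Klf2 was at 1593 CPM, but T cells also held 868, so its log2 ratio over all other cells was 3.28. Epas1, the hypoxia-inducible factor of endothelium, was at 465 CPM against 16.0. Ets1 (log2 ratio 2.02), Klf4 (1.39) and Nr2f2 (0.28) were the measured factors under the limit.

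**Figure D2:**
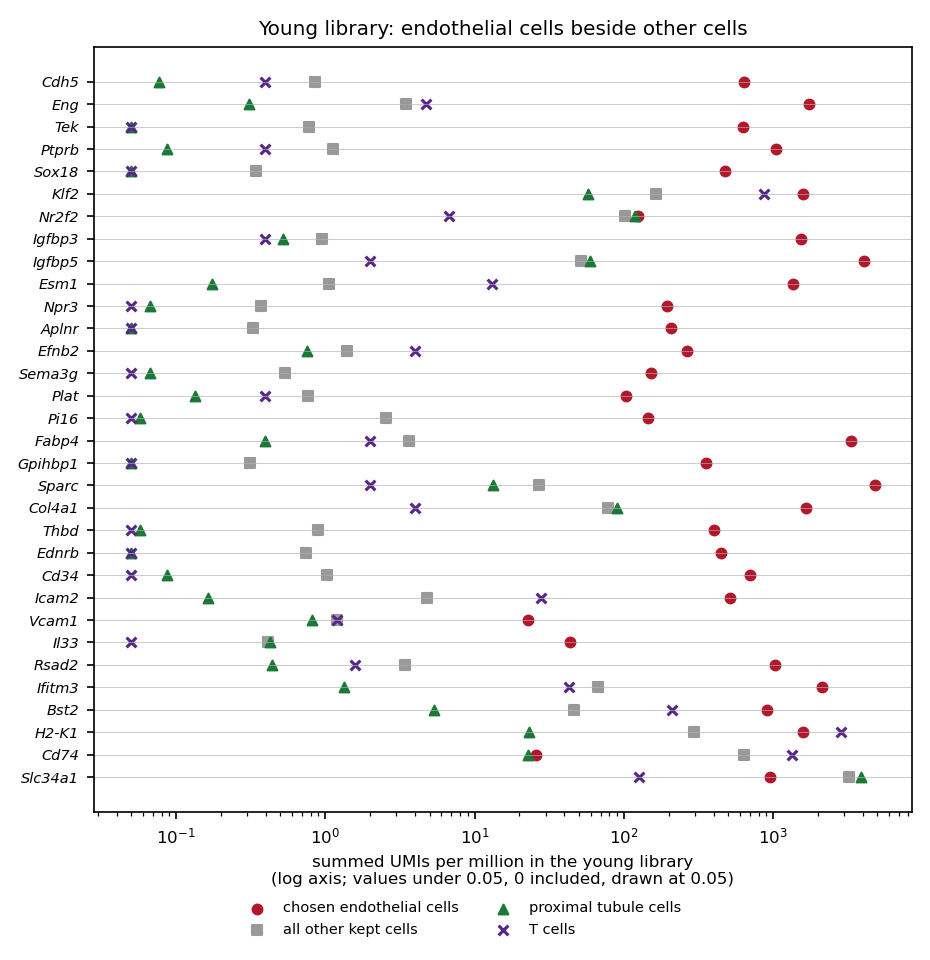
Level in the young library (summed UMIs per 1e6, log axis, values under 0.05 drawn at 0.05) of 32 genes in the selected endothelial cells, all other young cells, proximal tubule cells and T cells. Cdh5, Igfbp3, Fabp4 and Rsad2 lie far to the right of all other groups, Klf2 and Nr2f2 lie close to at least 1 other group, and H2-K1, Cd74 and Slc34a1 are higher in another group.

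The 15 genes outside the selection with the highest lower bound of the ratio over other young cells included Sox17, Sox18 and Ptprb and several secreted and lipid-handling genes. Igfbp3, which binds insulin-like growth factors, was at 1544 CPM (1490 to 1599) against 0.954, a log2 ratio of 10.66, and was detected in 237 of 305 cells (lowest 0, median 8.26, highest 179.6 UMIs per 10000). Esm1, a secreted proteoglycan induced by VEGF, was at 1355 CPM against 1.06 and was detected in 223 cells. Cyp26b1, which degrades retinoic acid, was at 92.95 CPM against 0.0487, and Gpihbp1, which carries lipoprotein lipase across capillaries, at 358 against 0.313. Both were restricted in breadth, with 80 and 161 of 305 cells. The fatty acid binding protein gene Fabp4 was at 3308 CPM in 292 cells, and Sparcl1, a matrix protein gene, at 569 CPM in 172. Cyyr1, Fam167b, Exoc3l2, Tm4sf1, AU021092 and AC167229.1 completed the 15 leading genes, with log2 ratios from 9.81 to 12.47. The last of these had only 80 UMIs.

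Genes used to tell vascular beds apart were read next. Of the 16 listed peritubular and venous genes 13 were measured and 9 passed the limit (median log2 ratio 3.95). Igfbp5 was at 4063 CPM in 276 cells, with a median of 40.9 and a highest value of 179.6 UMIs per 10000. Npr3, the clearance receptor of natriuretic peptides, was at 195 CPM in 117 cells, and Aplnr, the apelin receptor, at 206 CPM in 156. The genes of this list overlap with tubule expression in places: Plscr2 (989.8 CPM) and Gas6 (521) were also at 419.6 and 151 CPM in proximal tubule cells. Dnase1l3 and the venular gene Ackr1 had 0 UMIs.

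Glomerular capillary genes were less uniform. Of 16 listed, 12 were measured and 10 passed the limit (median log2 ratio 6.198). Ehd3, a glomerular marker used in the selection, was in 228 of 305 cells, and Plvap, the diaphragm protein of fenestrated capillaries that mature glomerular endothelium lacks, in 301. Of the 260 cells with under 3 tubule genes, 191 held both, 66 held Plvap alone and 2 held Ehd3 alone. Plat, the tissue plasminogen activator, was at 104 CPM in 127 cells, and Pi16 at 145 CPM in 111. Tbx3, a transcription factor gene of the glomerular tuft, was at 37.1 CPM in 54 cells, but Gata5 had 0 UMIs and Sost 3. Lpl and Mapt, also on the list, were lower than in other cells (log2 ratios -1.51 and -1.70).

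Arterial and medullary genes ranged from broadly detected to held by 1 or 2 cells. Of 22 listed genes 12 were measured and 10 passed the limit (median log2 ratio 7.56). Efnb2, the arterial ephrin ligand, was at 264 CPM in 207 cells, Sema3g at 152 CPM in 134 and the Notch ligand gene Dll4 at 94.4 CPM in 118. The gap junction genes of arteries were rare, with Gja4 in 37 cells and Gja5 in 1. Slc14a1, the urea transporter of the descending vasa recta, had 54 UMIs, all in 2 cells. Aqp1, a water channel gene shared with the proximal tubule, was in 41 cells at 81.6 CPM, against 184 in proximal tubule cells. Of 7 lymphatic genes, Lyve1, Pdpn, Ccl21a and Reln had 0 UMIs and Prox1 3, while Flt4, the receptor for VEGF-C that fenestrated blood capillaries also express, was at 117 CPM in 155 cells.

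Growth factor receptors that maintain capillaries were counted with their ligands. Of 24 listed VEGF, angiopoietin and Notch genes 17 were measured and 15 passed the limit (median log2 ratio 5.89). Beside the selection markers Flt1 and Kdr, the VEGF co-receptor genes Nrp1 and Nrp2 were at 894 and 323 CPM against 18.1 and 0.843. Vegfa itself was at 37.1 CPM against 137 in the other cells, and Angpt1 had 3 UMIs. Notch1 and Notch4 were at 222 and 124 CPM, and the Notch target gene Hes1 at 206. In the TGF-beta and BMP list, 11 of 14 measured genes passed the limit (of 18 listed, median log2 ratio 3.70). The endothelial receptor gene Acvrl1 was at 121 CPM against 1.19, and Id3, a direct target of BMP signals, at 1211 against 74.5. Tgfb1 was at 211 CPM, but T cells held 162.

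Genes of capillary function followed. All 10 measured genes for vascular tone passed the limit (of 16 listed, median log2 ratio 6.29). Ednrb, the endothelial receptor that clears endothelin, was at 445 CPM against 0.745, and the natriuretic peptide receptor gene Npr1 at 172 against 0.244. Nos3, which makes nitric oxide, was at 62.8 CPM in 93 cells, whereas the prostaglandin genes Ptgs2 and Ptgis had 0 UMIs and Ptgs1 was at 167 CPM. Of the coagulation list, 8 of 9 measured genes passed (of 15 listed, median 5.08). Thrombomodulin (Thbd), which turns thrombin to an anticoagulant role, was at 403 CPM against 0.891. Of 10 genes for caveolae and fenestrae 9 passed (median 6.94), with Cav1 at 149 CPM against 0.425. Of 16 measured basement membrane genes 13 passed (of 18 listed, median 4.94). The collagen genes Col4a1 and Col4a2 were at 1661 and 895 CPM against 78.0 and 48.8, whereas Col4a3 and Col4a4, which form the mature glomerular network made by podocytes, were lower than in other cells (log2 ratios -1.08 and -1.28). Of the lipid list, 4 of 7 measured genes passed (Fabp4, Fabp5, Gpihbp1 and Scarb1), and the fatty acid transporter gene Cd36 was at 57.4 CPM against 72.7 in proximal tubule cells.

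The study asked how innate lymphoid cells hold on to structural kidney cells, so the adhesion ligands and the cytokines that act on group 2 innate lymphoid cells were read in the endothelium. Of 18 adhesion genes 9 were measured in the young cells and 7 passed the limit (median log2 ratio 6.75). Vcam1, a ligand of integrins that contain the alpha 4 chain (chr3:116109949-116129688 of GRCm38, minus strand), had 46 UMIs in 22 of 305 young cells, or 22.7 CPM (16.6 to 30.3). Proximal tubule cells were at 0.818 CPM and T cells at 1.19. Thinned to 1000 UMIs per cell, which left out 11 of the 305 cells, Vcam1 was in 1.36% of the selected cells (7.21% without thinning), 0.0867% of proximal tubule cells (1.08%) and 0% of T cells (0.462%). The median depths before thinning were 5538, 14749 and 4864 UMIs. The intestinal ligand gene Madcam1 had 0 UMIs in all 322 cells, and Fn1 (fibronectin) had 1 in the young cells and 0 in the old ones. Cdh1, the E-cadherin gene of epithelium, had 7 UMIs in 4 young cells. Icam2 was at 516 CPM in 267 cells and Icam1 at 166 in 156, whereas the selectin genes Sele and Selp had 7 and 2 UMIs.

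Il33 was the measured cytokine of the list of 13 that act on these lymphoid cells. It had 88 UMIs in 65 of 305 young cells, or 43.5 CPM (34.9 to 53.6), against 0.423 in proximal tubule cells and 0 in T cells. Thinned, Il33 was in 5.10% of the selected cells (21.3% unthinned), against 0.0347% (0.693%) of proximal tubule cells. Tslp, Il7, Il2, Il18 and Csf2 each had at most 2 UMIs, and Il25 had 0. Chemokine genes were low in the same cells: of the 20 listed in the files, 14 had UMIs, at 140.4 CPM together. Only Cxcl16 reached 50 UMIs (24.7 CPM, against 48.4 elsewhere), and Ccl2, Ccl7, Ccl19, Ccl20 and Ccl21a had 0. The receptors that would read inflammatory signals summed to 1322 CPM. Of 12 measured receptor genes 5 passed the limit (of 20 listed, median log2 ratio 1.90), among them Tnfrsf1a at 164 CPM and Il1r1 at 26.7. Fas, the death receptor gene that the lpr mutation disrupts, was counted, which does not show an intact transcript, with 98 UMIs in 77 young cells (48.5 CPM, against 1.59 elsewhere). Tlr7 and Tlr9 had 0 UMIs in all 322 cells.

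Interferon-stimulated genes were high in young endothelium. Of 30 listed genes 29 were measured and 24 passed the limit (median log2 ratio 4.06). Rsad2, an antiviral enzyme gene (chr12:26442746-26456452, minus strand), was at 1032 CPM (988 to 1077) in 271 of 305 young cells, against 0.443 in proximal tubule cells and 1.59 in T cells. Its level per cell ran from 0 through a median of 9.56 to 73.9 UMIs per 10000, so it was spread over the cells and not held by a few. The membrane proteins that restrict virus entry and release were also broad, with Ifitm3 at 2141 CPM in 290 cells and Bst2 at 911 in 275. Classical members were lower and in fewer cells, with Isg15 at 243 CPM in 160, Ifit1 at 77.6 in 88 and Oasl2 at 89.5 in 110. T cells of the same library held Isg15 at 47.2 CPM and proximal tubule cells at 0.366.

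Promoters of these genes were searched for the interferon response element, written GAAANNGAAA, on both strands of the RefSeq windows of GRCm38.p6 that run from 250 bases before to 50 bases after each start. Of the 30 genes 23 had a window, and 14 of their 29 windows (48.3%) held a match, against 3.44% of all 32851 windows and 5.50% of the windows of the genes past the 4-fold limit. A match describes the letters and does not show that a factor binds. The stretches below show 3 broadly detected genes with a match. Each is 60 bases on the strand of its gene, with 1 match in capitals. Bst2 has 2 matches in its window, and the other overlaps the start of its capitals. For Rsad2 the capitals read as the element on the opposite strand.
Ifitm2 (chr7:140955973-140956032, minus strand): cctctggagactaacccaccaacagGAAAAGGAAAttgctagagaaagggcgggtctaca
Rsad2 (chr12:26456538-26456597, minus strand): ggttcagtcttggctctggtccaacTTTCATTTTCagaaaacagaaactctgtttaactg
Bst2 (chr8:71537562-71537621, minus strand): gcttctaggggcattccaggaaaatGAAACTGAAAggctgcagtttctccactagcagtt

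For the ETS factors, whose core CCGGAAG or CAGGAAG is common in endothelial enhancers, the windows showed no such contrast. A match was in 21.0% of windows of genes past the 4-fold limit, 28.6% of windows of all tested genes and 20.9% of all windows.

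Antigen presentation genes of class I were measured in nearly every young cell. Of 11 measured genes 10 passed the limit (of 14 listed, median log2 ratio 2.53). H2-K1 was at 1592 CPM in 293 cells, between proximal tubule cells (23.3) and T cells (2857). B2m, the shared light chain, was at 2245 CPM against 177 and 2620. Class II genes were near the level of proximal tubule cells: Cd74, the invariant chain, had 52 UMIs in 28 young cells, or 25.7 CPM against 22.9 in proximal tubule cells. Thinned, Cd74 was in 3.06% of the selected cells, 1.56% of proximal tubule cells and 6.03% of T cells, so the young level lay within the range of the other classes.

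The young cells were next compared with each other, leaving out the 45 with proximal tubule genes, and since the splits use measured values they are descriptions with counting intervals. Nr2f2, the transcription factor gene of venous identity (chr7:70351944-70366735, minus strand), divided the 260 cells into 83 with and 177 without a UMI, with median depths of 5868 and 5035 UMIs. A UMI of a low gene depends on depth, and Nr2f2 itself was at 125 CPM in the selected cells, 119 in proximal tubule cells and 6.74 in T cells. The genes with the highest ratio in cells with Nr2f2 included matrix and secreted factor genes. Elastin (Eln) was at 209 against 35.1 CPM (log2 ratio 2.57, 1.99 to 3.201), biglycan (Bgn) at 100.5 against 14.7 (2.77) and Igf1 at 78.8 against 15.8 (2.31). The guidance gene Sema3d (1.84), the chemerin receptor gene Cmklr1 (2.21), the atypical receptor gene Gpr182 (1.77) and the cytokine feedback gene Socs3 (1.30) were also higher. Vcam1 followed the same split, with UMIs in 16 of 83 cells with Nr2f2 and 3 of 177 without (59.1 against 5.66 CPM, log2 ratio 3.38, 2.005 to 5.11).

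Other genes were higher in cells without Nr2f2. Sema3g was at 257 CPM in them and 88.7 in cells with Nr2f2 (log2 ratio -1.53, -2.03 to -1.07), and Gja4 at 60.0 and 15.8 (-1.93). Npr3 (-1.32), Gpihbp1 (-1.12), the membrane gene Btnl9 (-1.49), Igfbp3 (-0.88) and Esm1 (-0.80) differed in the same direction, as did the secreted Igfbp5 (-0.62). Plvap (0.26), Ehd3 (0.33) and Gas6 (0.55) were higher in cells with Nr2f2, and the matrix genes Sparc (-0.02) and Col4a1 (-0.04) differed little, so neither matrix nor capillary genes went 1 way. Genes of endothelial identity varied in this split. Emcn (-0.02) and Cdh5 (-0.13) differed little, as did the lipid gene Fabp4 (0.05). Adgrl4 (0.80) was higher in cells with Nr2f2, whereas Cldn5 (-1.66) and the selection marker Kdr (-0.42) were lower. Rsad2 (-0.24) and Isg15 (-0.16) were also close in both sets. A split on Efnb2, 177 cells with and 83 without, gave the mirror image for some genes: Npr3 was higher (1.51) and Nr2f2 lower (-1.32) where Efnb2 was detected, although 51 of the 177 cells held both.

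**Figure D3:**
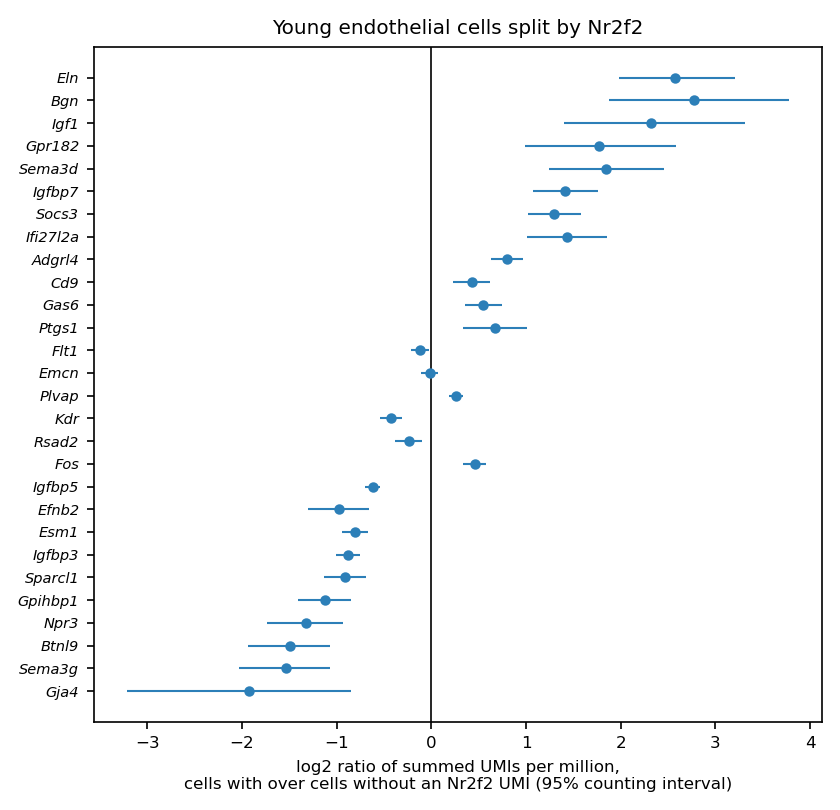
Log2 ratio of summed UMIs per 1e6 in young endothelial cells with a Nr2f2 UMI (83) over those without (177), cells with 3 or more proximal tubule genes left out; points are ratios and lines 95% counting intervals. Eln, Bgn and Igf1 lie above 2, Gja4, Sema3g and Btnl9 near or under -1.5, and Emcn, Flt1 and Rsad2 within 0.3 of 0.

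Ehd3 drew a different line. Cells with both Ehd3 and Plvap (191) were compared with cells with Plvap alone (66), whose median depths were 5652 and 3918 UMIs. Hemoglobin genes and Aqp2 had the lowest ratios, with 77 and 3024 Hbb-bs UMIs and 0 and 85 Aqp2 UMIs. The cells named above that held most Hbb-bs and all Aqp2 UMIs were thus in the set with Plvap alone. Aqp1 was at 12.7 CPM with Ehd3 and 215 without (log2 ratio -4.09, -5.04 to -3.23), Sox17 at 13.6 and 122 (-3.17), the vasoconstrictor gene Edn1 at 19.9 and 104 (-2.38) and the tight junction gene Cldn5 at 23.5 and 93.1 (-1.99). The values without Ehd3 rest on 60 Aqp1 and 34 Sox17 UMIs. Both genes lay mostly in few cells: of all 305 young cells, 10 held 110 of the 165 Aqp1 UMIs and 10 held 43 of the 53 Sox17 UMIs. Xist RNA also differed between the sets (55.1 and 333 CPM, -2.60), with Xist and no Y-linked UMIs in 13 of 191 and 12 of 66 cells, and its part in these ratios was not tested. All 54 Slc14a1 UMIs lay in the cells without Ehd3. Esm1 (0.64) and the receptor activity gene Ramp3 (0.68) were higher with Ehd3, and Igfbp3 (0.07) and Rsad2 (-0.00) were level.

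Cell cycle genes were held by a small set of young cells. In 20 of the 260 cells at least 3 of the 13 cell cycle genes were detected, at a median depth of 9174 UMIs against 5142 in the other 240. Mki67, which the split used, had 411 UMIs in these cells and 0 in the others. Among genes the split did not use, the apelin gene Apln was higher (100.1 against 43.3 CPM, log2 ratio 1.21, 0.37 to 1.99), whereas Npr3 (-1.91), Jun (-1.13) and Igfbp3 (-0.97) were lower. Apln was rare: it lay in 32 of all 305 young cells, and 1 cell held 17 of its 82 UMIs. The immediate early and heat shock genes varied widely between cells, with a sum from 5.07 to 838 UMIs per 10000 (median 94.2). The 130 cells at or above the median of that sum had more Socs3 (592 against 30.0 CPM) and Klf4 (647 against 151) than the 130 below it, while Esm1 (1687 against 1690) and Vcam1 (24.9 against 25.5) were level.

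The old library gave 17 cells, and their genes were compared with those of the 305 young cells. Among 6554 genes with at least 50 UMIs over both libraries, 54 (0.824%) had an interval wholly above 2-fold higher in the old cells and 128 (1.95%) wholly beyond 2-fold lower, with a median log2 ratio of -0.01. Without the 45 young cells that held proximal tubule genes, the counts were 31 (0.601%) and 28 (0.543%) of 5156. None of 18 measured identity genes outside the selection passed the 2-fold limit in either direction (median log2 ratio 0.26).

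Class II antigen presentation genes were higher in the old cells. All 4 measured genes of the 8 listed passed the limit upward, with a median log2 ratio of 5.70 (5.46 without the cells with tubule genes). Young cells held Cd74 at 25.7 CPM (19.2 to 33.7) and old cells at 2654 (2365 to 2968), a log2 ratio of 6.69 (6.26 to 7.14). It was detected in 14 of 17 old and 28 of 305 young cells, with medians of 27.3 and 0 UMIs per 10000 and highest values of 56.5 and 27.8. The old range, which starts at 0, contained the whole young range. H2-Aa and H2-Ab1, the chains of the class II dimer, were at 10.4 and 16.3 CPM in the young and 639.7 and 718 in the old cells, and H2-DMb1, which loads peptides, at 10.4 and 398. The difference was not limited to endothelium: Cd74 was at 22.9 and 2404 CPM in young and old proximal tubule cells, while in T cells it was at 1334 and 334. Thinned to 1000 UMIs, Cd74 was in 80% of 15 old selected cells, 69.2% of old proximal tubule cells and 7.76% of old T cells. The selection removed cells with Ptprc, Cd3d or Lyz2 UMIs. In the selected old cells Cd3e, Cd79a, C1qa and S100a8 had 0 UMIs and the summed leukocyte genes ran from 0 to 3.37 per 10000, against 0 to 23.3 in young cells, and the 26 young and 11 old cells kept out by those genes held Cd74 at 1311 and 3547 CPM. The part of leukocyte RNA in the Cd74 level was not tested.

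Some class I and interferon genes were also higher. Of 11 measured class I genes 4 passed the limit and all 11 had a positive log2 ratio (median 1.11). H2-K1 was at 1592 and 5187 CPM (log2 ratio 1.70, 1.58 to 1.83), and every old cell held it, from 18.4 through a median of 45.7 to 135 UMIs per 10000, against a young median of 16.0 and a young maximum of 59.7. H2-D1 (1.13), H2-T23 (1.42) and H2-Q4 (1.96) were the other 3. In proximal tubule cells H2-K1 was at 23.3 and 560.1 CPM, and in T cells at 2857 and 4147. Without the cells with tubule genes, 2 of the 11 passed, H2-K1 (1.38) and H2-Q4 (1.63).

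Of 29 measured interferon-stimulated genes 4 passed upward and 0 downward (median log2 ratio 0.59). Iigp1, an interferon-inducible GTPase, was at 118 and 709 CPM (2.58, 2.21 to 2.95), and the related genes Igtp (2.30) and Gbp4 (1.84) and the surface antigen gene Ly6a (1.16) were the others. Without the young cells with tubule genes 2 of 28 passed, Iigp1 and Igtp. Iigp1 lay in 8 of the 17 old cells, and 1 old cell held 17 of the 24 Igtp and 18 of the 35 Gbp4 UMIs. Other antiviral genes did not pass the limit, with Rsad2 at 1032 and 821 CPM (-0.33, -0.64 to -0.03) and Isg15 at 243 and 156 (-0.64, -1.41 to 0.03). Rsad2 was in 8 of 17 old and 271 of 305 young cells. In proximal tubule cells the per-cell sum of the list had medians of 6.69 (young) and 34.8 UMIs per 10000 (old), in the selected cells 174 and 215, and in T cells 21.5 and 24.2.

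Vcam1 was the adhesion gene that passed the limit, 1 of 10 measured. Young cells held it at 22.7 CPM and old cells at 467 (351 to 609), a log2 ratio of 4.36 (3.77 to 4.96), and 4.21 without the cells with tubule genes. Its 54 old UMIs came from 7 of 17 cells, with counts of 15, 13, 10, 8, 6, 1 and 1, and 6 of those 7 cells also held Nr2f2. Among young cells, 17 of the 22 with Vcam1 held Nr2f2. Within cells that held Nr2f2 and under 3 tubule genes, 83 young and 11 old, the log2 ratio of Vcam1 was 3.29. Old proximal tubule cells were at 17.0 CPM and old T cells at 1.46. Icam1 (0.38, -0.26 to 0.97) and Icam2 (0.27) stayed within the limit, Madcam1 and Fn1 had 0 UMIs, and the 17 Selp UMIs of the old library came from 1 cell. Il33 was at 112 CPM in the old cells (13 UMIs in 5 cells), with a log2 ratio of 1.37 whose interval (0.40 to 2.22) did not clear 2-fold.

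The makeup of vascular genes differed between the libraries too. Nr2f2 was at 125 and 484 CPM (log2 ratio 1.96, 1.51 to 2.38) and was detected in 11 of 17 old and 107 of 305 young cells. Thinned, it was in 11.2% of young and 26.7% of old selected cells (35.1% and 64.7% unthinned), and in 11.7% and 10.6% of young and old proximal tubule cells, so the young share was not above that of the tubule. Of 13 measured peritubular and venous genes 4 passed upward, Nr2f2, Igf1 (2.49), Cd9 (1.41) and Ifi27l2a (1.68), although the median of the list was -0.36. Without the young cells with tubule genes 2 of 13 passed, Nr2f2 and Igf1, and 11 of the 19 old Igf1 UMIs lay in 1 cell. Among capillary genes of the same list, summed levels were lower for Igfbp3 at 1544 and 873 CPM (-0.82), Esm1 at 1355 and 968 (-0.49) and Npr3 at 195 and 95.1 (-1.04). The old sums came from few cells. Igfbp3 and Esm1 were each in 6 of 17 old cells, against 237 and 223 of 305 young cells. One old cell held 68 of the 112 Esm1 UMIs. All 11 old Npr3 UMIs lay in 1 cell, whereas 117 of 305 young cells held the gene. Sparcl1 had 1150 UMIs in 172 young and 2 UMIs in the old cells (log2 ratio -5.04, -8.09 to -3.18), and Sema3g, an arterial gene, 307 and 2 (-3.13). Cyp26b1 had 188 young and 0 old UMIs, at least 3.58-fold lower against a floor of 3 counts in the old cells. Because Nr2f2-bearing young cells also held less Igfbp3, Npr3 and Sema3g, a different mix of vessel types and a different level within a type cannot be told apart in 17 cells.

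Other genes at the upper end included S100a6, a calcium-binding protein gene, at 132 and 2187 CPM (4.04) in 15 of 17 old cells, and Procr, the protein C receptor, at 25.2 and 208 (3.04). Of the 24 old Procr UMIs 19 lay in 1 cell, and without the old cell that held Mgp the gene did not pass the limit. S100a6 was at 20.8 CPM in old proximal tubule cells and 1304 in old T cells. The prostaglandin transporter gene Slco2a1 (5.08), Phlda3 (4.13), a target of p53, and the protease gene Prss23 (3.83) followed, in 4, 8 and 4 old cells. One cell held 23 of the 33 old Slco2a1 UMIs, and 1 held 21 of the 43 of Prss23. Mgp, a calcification inhibitor of large vessels, had 93 old UMIs, all in the cell that also held the 10 Vwf and 17 Selp UMIs. Without that cell the counts of higher and lower genes were 38 and 115. All 35 old Ccl2 UMIs came from 1 other cell.

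The lower end held the transcripts of other cells and of acute stimulation. Of 15 proximal tubule genes 12 passed downward (median log2 ratio -3.99), with Kap at 12330 and 726 CPM (-4.09). Without the 45 young cells with tubule genes, only 1 of 9 measured genes of this list passed downward (median -1.73). Kap was then at 2402 and 726 CPM (-1.73). The per-cell sum of all 15 genes had medians of 39.8 in young and 14.5 UMIs per 10000 in old selected cells. In T cells the medians were 38.9 and 14.4, and the source of this RNA was not tested. Hbb-bs and Hba-a1 were at 0 in the old cells. The young Hbb-bs UMIs lay mostly in the 1 cell named above. Of 19 measured immediate early and heat shock genes 8 passed downward and none had a positive log2 ratio (median -1.72), among them Egr1 (-2.63), Hspa1a (-2.75) and Jun (-1.43). Fos was at 1465 and 605 CPM (-1.28, -1.64 to -0.93) and was detected in 186 of 305 and 6 of 17 cells, with 54 of the 70 old UMIs in 1 cell. The per-cell sum of the list had medians of 94.2 and 36.9 per 10000 in the selected cells, 57.6 and 55.4 in proximal tubule cells and 116 and 128 in T cells. Mki67, Ube2c and Cenpf, 3 of 12 measured cell cycle genes, had 0 UMIs in the old cells. Mki67 had been in only 20 of 305 young cells. Other cell cycle genes did have old UMIs, and 2 of the 17 old cells held at least 3 of the 13 listed. The list summed to 942.4 CPM in young and 207.5 in old selected cells.

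**Figure D4:**
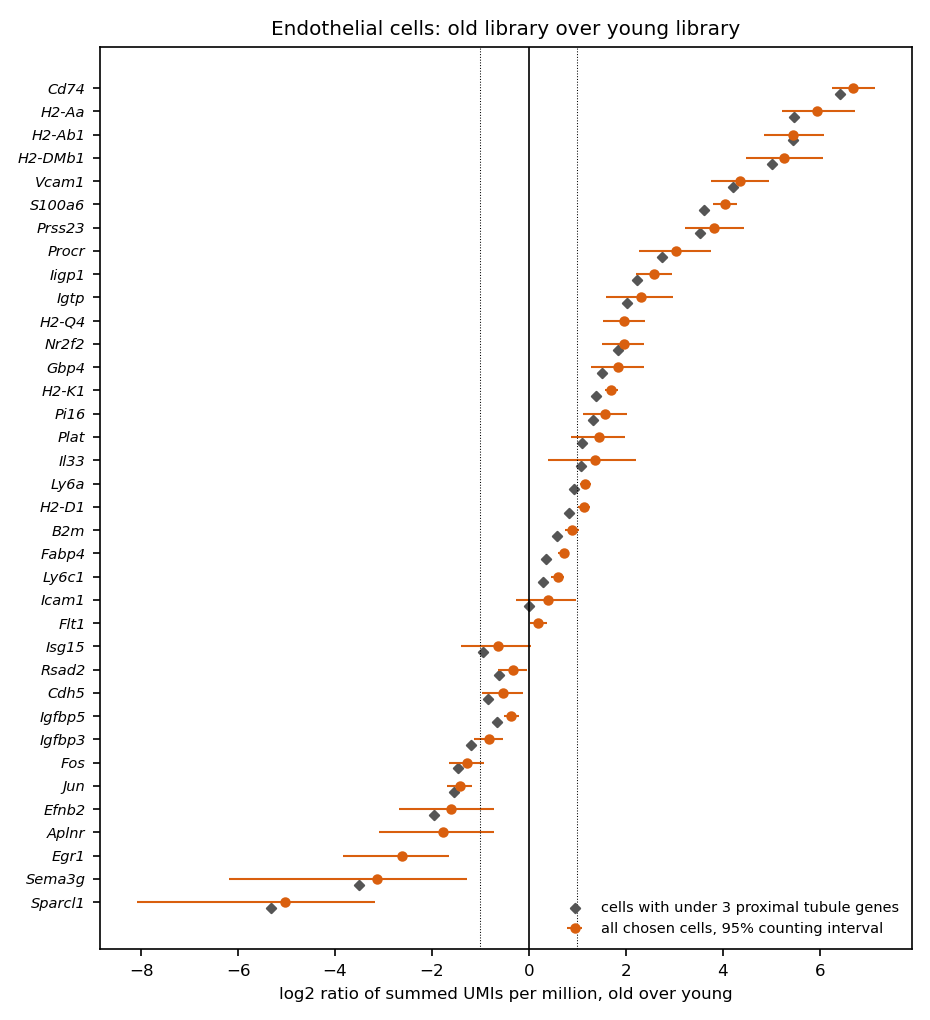
Log2 ratio of summed UMIs per 1e6 in old over young endothelial cells for 36 genes, with 95% counting intervals (circles, 17 old against 305 young cells) and the ratio without the 45 young cells with proximal tubule genes (diamonds); dotted lines mark 2-fold. Class II genes and Vcam1 lie above 4, Cdh5, Flt1 and Rsad2 within 1 of 0, and Sema3g and Sparcl1 under -3.

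**Figure D5:**
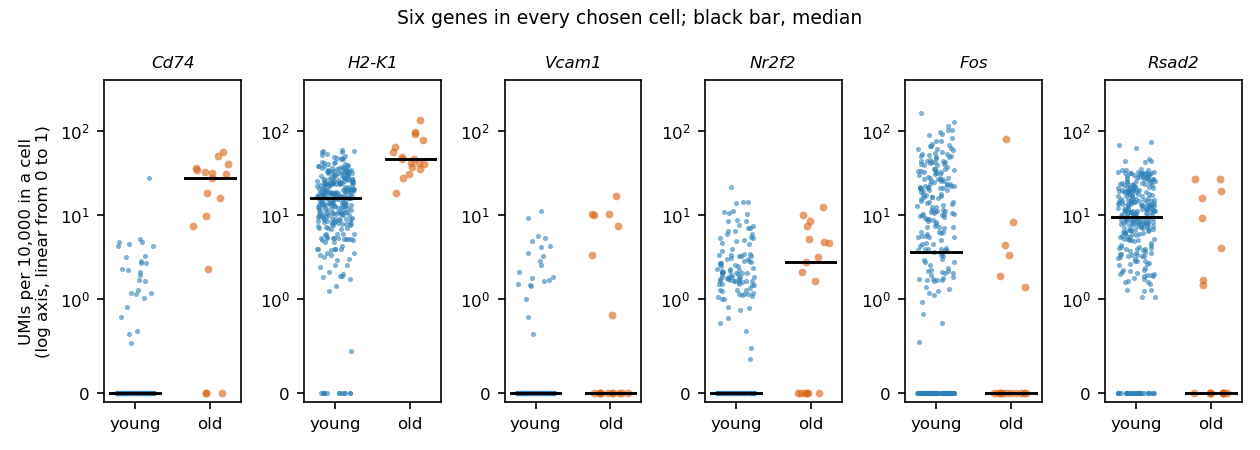
UMIs per 10000 (log axis, linear from 0 to 1) of Cd74, H2-K1, Vcam1, Nr2f2, Fos and Rsad2 in each of the 305 young and 17 old endothelial cells; black bars are medians. The median of Cd74 is 0 in young and 27.3 in old cells, that of H2-K1 16.0 and 45.7, and that of Vcam1 0 in both, with 7 of 17 old cells above 0.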

How the data were processed

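Kidney cells of young and old MRL-lpr mice were sequenced with the 10X Chromium 3' kit v3.1, 1 library of pooled kidneys per age. The authors deposited UMI counts per gene and cell, made with Cell Ranger 3 against mm10 per the submitters' processing notes (3.1.0 in the file header). The members and gene lists were chosen with earlier results of these data known. Cells were filtered and selected as stated above, and counts were summed per library with Python 3.11.15, NumPy 2.4.6, SciPy 1.17.1, pandas 2.3.3 and Scanpy 1.11.5 (plots, Matplotlib 3.10.9). Genes with at least 50 summed UMIs were called where the exact 95% interval of the ratio (conditional binomial) lay beyond 4-fold over other cells or 2-fold between ages. The interval script was tested on simulated counts drawn at the summed totals, without variation between cells. That test does not cover genes whose UMIs lie mostly in 1 or a few cells. Replication was absent, so no p-value is given, and precision is limited by 115673 UMIs in the old cells. Named genes were the selection markers, the 4 highest of each list, lists on identity, vascular beds, adhesion, chemokines and cytokines, the 15 leading genes over other cells, the 10 at each end between ages, and genes of the splits. Genes named outside this rule were chosen after their values were seen. Doublets called by Scrublet stayed in. The planned split into Ehd3-only cells held too few cells and was replaced after seeing the data. Gene positions came from GENCODE vM21 (GRCm38) and promoters from RefSeq.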

Additional observations from a re-analysis of the deposited data

How the results depend on the processing

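No paired analysis was possible because each age has 1 library and no test was run. As reported, 17 old cells were selected, 914 genes were past 4-fold over other young cells, and 54 genes were higher and 128 lower in old cells. With at least 2 markers there were 30 old cells, 110 higher and 264 lower genes, and Pi16 (-0.10), Fabp5 (-0.18), Kap (0.64) and Slc34a1 (0.013) turned their log2 ratio. Higher and lower genes numbered 34 and 44 without Scrublet doublets, and 31 and 28 without cells with tubule genes. In cells with Xist alone, 142 genes were past 4-fold, 65 were lower, and Pi16 was at -1.38. In cells with Y-linked UMIs alone, 17 were higher and 51 lower, and Igtp was at -0.21. In cells with Ehd3 and no Plvap the counts were 5 past 4-fold, 1 higher and 8 lower (Jun 0.71), and in cells with Plvap and no Ehd3 323, 19 and 48 (Gbp4 -0.81). A minimum of 200 UMIs gave 416 past 4-fold and 21 higher. Alternatives added after seeing the data gave 545, 20 and 27 in cells with Nr2f2 and few tubule genes, and 38 higher and 115 lower without the old cell that held Mgp. Fewer cells or genes entered each of these except the first. For the first, the cause was not tested. A gene with 0 UMIs in the 17 old cells may still lie at up to 25.9 CPM.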
